A study of Mus musculus with 145 samples.

Results

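RPG3 is a late cluster on the branch of spermatogonial stem cell (SSC) reprogramming that reaches pluripotency, and its cells came from both batches of the time course. The members described here were the 261 cells that the authors' deposited annotation assigns to RPG3, of 4464 cells in the cleaned table, and they were divided by the batch code in that annotation. Batch B2 gave 130 RPG3 cells in 3 libraries, namely 7 cells in day 12 replicate 2, 58 in day 18 replicate 3 and 65 in day 18 replicate 5. Batch B1 gave 131 RPG3 cells in 5 libraries, namely 29, 26 and 10 cells in day 20 replicates 1, 2 and 8, and 35 and 31 cells in day 23 replicates 1 and 2. No RPG3 cell was annotated on day 14. Both groups came from the same design: SSCs of the strain C57BL/6[female] X DBA[male], derived from early postnatal males carrying an *Oct4*-EGFP or EGFP transgene, were reprogrammed in medium with EGF, bFGF, GDNF and ESGRO, without the chemicals used in another arm of the study (treatment none in the labels). Single cells were picked by mouth pipette from SSC-like and PSC-like colonies, so that the cells of a library are a selection made by eye. Every B2 library came from day 18 or earlier and every B1 library from day 20 or later, so batch and day cannot be told apart in this comparison.

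Pluripotent cells are held in their state by a network of transcription factors around *Pou5f1*, *Sox2* and *Nanog*. A naive state, as in the inner cell mass, is marked by factors such as *Klf4*, *Esrrb* and *Tfcp2l1*, and a formative or primed state, as in the epiblast after implantation, by *Otx2*, *Fgf5* and *Dnmt3b*. Compact colonies also carry programmes that answer to their surroundings: hypoxia inducible factors switch on glucose uptake, glycolysis and collagen modifying enzymes when oxygen is low, and the integrated stress response does so for amino acid supply through *Atf4*.

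Expression was measured by a modified STRT-seq, in which each cDNA molecule carries a unique molecular identifier (UMI), and the UMI counts of the RPG3 cells were summed per library. The sums held 1570976 to 17474953 UMIs. The median RPG3 cell held 245864.5 UMIs and 8520.5 genes in B2, and 325014 UMIs and 8774 genes in B1. One library stood apart: day 12 replicate 2, with 7 cells of which 1 held only 4990 UMIs, had a median Spearman correlation of 0.789 with the other libraries over 8850 genes, against 0.910 to 0.936 for the rest. In it, 468 genes were more than 2-fold above and 994 more than 2-fold below every other library, so values without it are given beside results below. Among the 6 libraries with at least 26 RPG3 cells, a median of 9.81% of these genes differed by more than 2-fold between libraries of different batches, 10.2% between libraries of 1 batch and different days, and 7.21% between libraries of 1 batch and day. Pairs from different batches were therefore about as far apart as pairs from 1 batch and different days. The latter pairs were all from B1, and every pair from different batches also differed in day. RPG2 cells were annotated only in B2 libraries (8 in day 12 replicate 2 and 2 in day 18 replicate 5) and RPG4 cells only in B1 libraries (1 to 13 per library). The summed level of 6 fibroblast and feeder markers was 5.06 to 8.33 CPM (UMIs scaled to a common library size) in B2 and 5.93 to 23.5 CPM in B1, with every marker detected in each batch, and that of 3 spermatogonial markers 112 to 173 CPM and 72.5 to 196 CPM. Of 2 meiotic markers, *Spo11* was at 0 in B2, and their sum was 0.285 to 0.633 CPM in B2 and 1.35 to 5.63 CPM in B1. The sum of 4 neural markers was 0 to 15.96 CPM in B2 and 0.823 to 16.05 CPM in B1, where *Nr2f1* was at 0. The part of these differences in the results was not tested. The labels do not say that libraries came from separate cultures, so p-values measure the spread between these libraries, which may be technical. In the annotation, the RPG3 cells of the day 20 libraries share 1 Type code, and those of the day 23 libraries share another. Each B2 library has its own code, and the meaning of the codes is not stated.

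The 3 markers of RPG3 were detected in both batches. *Sox2*, a core pluripotency factor (GRCm38 chr3:34650405-34652461, plus strand), stood at 313, 237 and 309 CPM in the B2 libraries, in the order given above, and at 210.0, 299, 269, 269 and 222 CPM in the B1 libraries. The 2 groups overlapped, with a log2 fold change (B2 minus B1) of 0.17 and a 95% interval of -0.15 to 0.50. *Otx2*, a homeobox factor of the epiblast (chr14:48657677-48673819, minus strand), stood at 130.4, 213 and 149.6 CPM in B2 and at 208, 181, 163, 315 and 260.0 CPM in B1. Its groups overlapped as well, with the highest values in the 2 day 23 libraries, and the log2 fold change was -0.45 (-0.92 to 0.02). *Epas1*, which encodes the hypoxia inducible factor HIF2A (chr17:86753700-86833410, plus strand), was the marker whose summed levels did not overlap. It stood at 144, 48.1 and 54.1 CPM in B2 and at 30.7, 29.7, 33.5, 23.7 and 28.002 CPM in B1, so all B2 libraries lay above all B1 libraries, day 12 replicate 2 furthest. The log2 fold change of *Epas1* was 1.48 (0.73 to 2.23, edgeR adjusted p = 0.195), or 0.83 without day 12 (edgeR adjusted p = 0.381).

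The shares of cells in which a marker was detected were taken after each cell was thinned to 50000 UMIs, which left out 7 RPG3 cells with fewer, 5 of B2 and 2 of B1. *Sox2* was detected in 98.4% of 125 B2 cells and 96.1% of 129 B1 cells, against 16.5% of 85 SSC1-4 cells of day 0. *Otx2* was detected in 84.8% and 93.8% of the RPG3 cells and in 1.18% of the day 0 SSCs. Without thinning its order was the reverse, at 96.9% and 94.7%, and the day 18 libraries differed after thinning, at 93.0% in replicate 3 and 77.8% in replicate 5. *Epas1* was detected in 69.6% of B2 cells (exact binomial interval 60.7 to 77.5%) and 47.3% of B1 cells (38.4 to 56.3%), and in 10.6% of the day 0 SSCs. By library the shares overlapped, at 63.2% to 100% in B2 and 38.2% to 70.0% in B1, where day 20 replicate 8 with 10 cells was highest. Without thinning, *Epas1* was detected in 89.2% of B2 and 70.2% of B1 cells although B2 cells were the shallower. Day 0 SSCs had a median of 180455.5 UMIs per cell. These intervals cover counting error only, and cells of 1 library are not replicates.

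Of 13344 genes tested, edgeR's quasi-likelihood test called 1 higher and 1 lower in B2, at an adjusted p below 0.05 and a log2 fold change of at least 0.72, which is 0.00749% of the genes in each direction and 0.015% in both. *Anxa2*, which encodes the membrane binding annexin A2 (GRCm38 chr9:69453620-69491795, plus strand), was the gene that fell. Its level was 5.70, 53.6 and 47.7 CPM in the B2 libraries and 289.7, 226, 321, 285 and 294 CPM in the B1 libraries. The means were 35.7 ± 26.1 (SD, n = 3) and 283 ± 34.8 CPM (SD, n = 5), with B1 7.94-fold above B2. All 3 B2 libraries were low and none overlapped B1, and the log2 fold change was -2.89 (-3.74 to -2.03, edgeR adjusted p = 0.0359), or -2.47 without day 12 (edgeR adjusted p = 3.94e-06). After thinning, *Anxa2* was detected in 57.6% of B2 cells, 95.3% of B1 cells and 64.7% of day 0 SSCs.

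*Pcbp1*, which encodes a poly(C) binding protein of RNA (chr6:86524492-86526321, minus strand), rose. It stood at 495, 511 and 478 CPM in B2 and at 246, 324, 235, 299 and 265 CPM in B1, with means of 495 ± 16.8 (SD, n = 3) and 274 ± 37.0 CPM (SD, n = 5). The B2 libraries lay close together and all were above B1, 1.81-fold by the means, with a log2 fold change of 0.85 (0.58 to 1.12, edgeR adjusted p = 0.0449). Single B1 libraries decided both calls: without day 20 replicate 1, day 20 replicate 8, day 23 replicate 1 or day 23 replicate 2, neither gene was called, with edgeR adjusted p up to 0.129. *Pcbp1* was also not called without day 18 replicate 3. Over all libraries left out in turn, the log2 fold changes stayed between -3.22 and -2.47 for *Anxa2* and between 0.80 and 0.93 for *Pcbp1*. At an unadjusted p below 0.05, 920 genes were higher and 720 lower in B2, 12.3% of those tested, and the libraries of the 2 batches did not overlap for 8.03% (498 higher or 3.73%, 574 lower or 4.3%). Without day 12, edgeR called 3 genes higher (0.021%) and 4 lower (0.0281%), or 0.0491% of 14257, with both of the above among them. DESeq2 called 87 genes higher and 119 lower (1.54%), again with both among them.

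**Figure D1:**
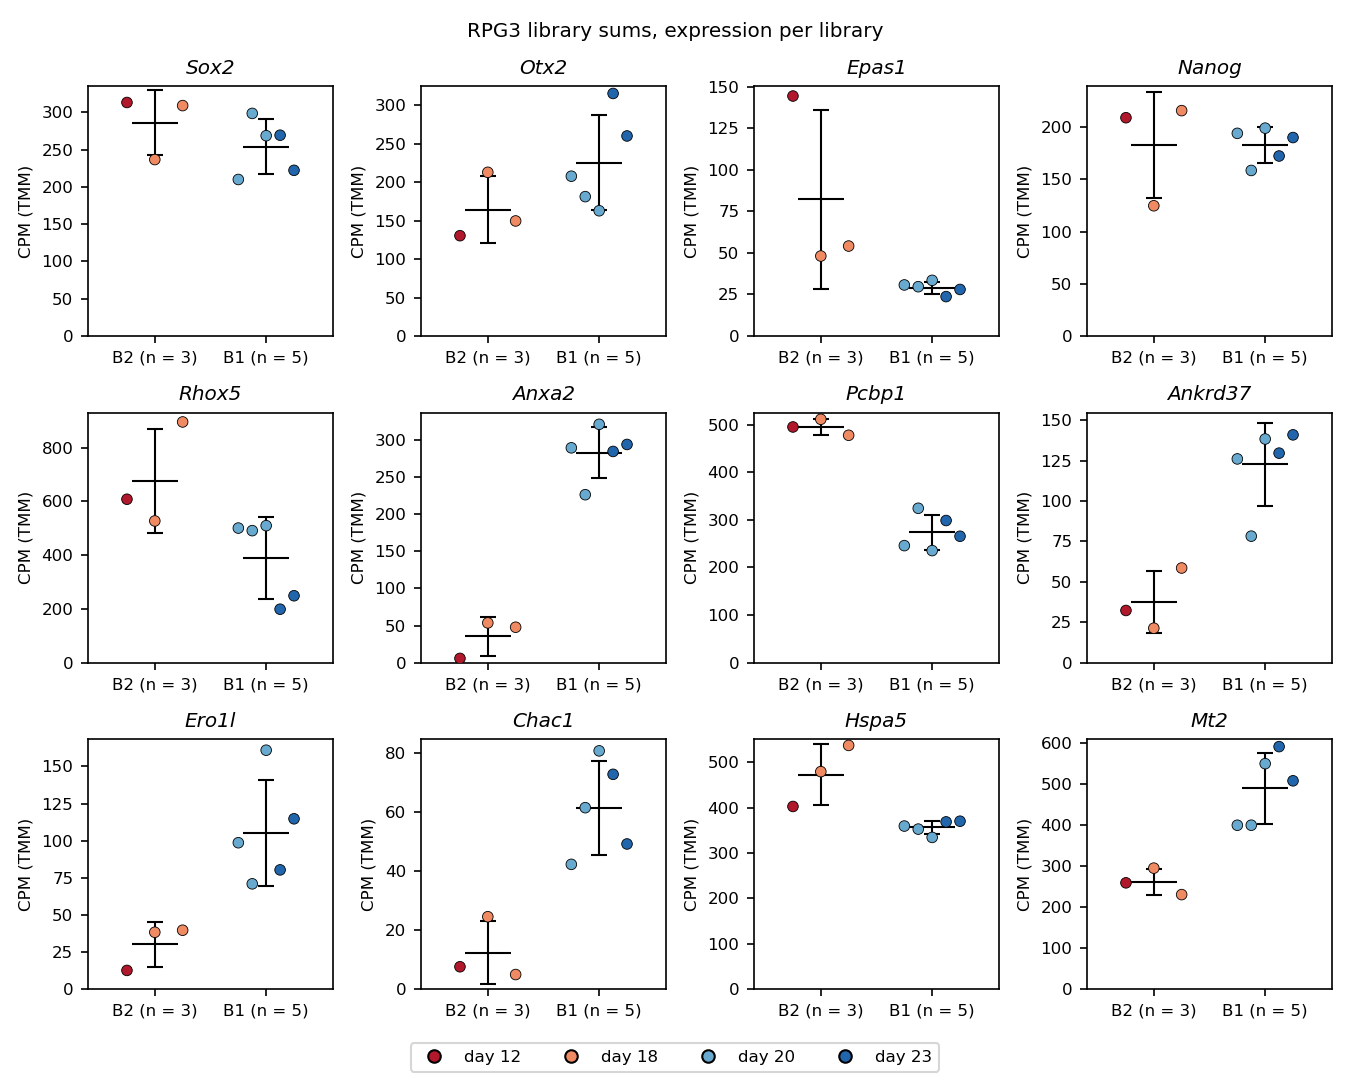
Expression of 12 genes in the RPG3 sum of each library, in CPM with TMM scaling (y axes from 0). Points are libraries coloured by day, bars are the mean and SD of 3 B2 and 5 B1 libraries. *Sox2* and *Nanog* overlap between the batches, while the B2 libraries lie below B1 for *Anxa2* (5.70 to 53.6 against 226 to 321 CPM) and above it for *Pcbp1*.

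How far the comparison can hold a gene steady depends on its level. For the 2704 genes with a mean of at least 100 CPM, the median half-width of the 95% interval was 0.36 on the log2 scale, and it was 1.001 over all genes tested. Of the 2704 genes, 87.7% had a log2 fold change between -0.5 and 0.5, and 23 had one of 1 or more in size. In simulated counts with the RPG3 library sizes, the test recovered 20.2% of genes changed by 1 and 50% of genes changed by 2 on the log2 scale.

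No gene of the pluripotency network was called between the batches by edgeR. The core list had 12 members tested and none called by edgeR or DESeq2, with 3 higher and none lower in B2 at an unadjusted p below 0.05, where 6.89% and 5.4% of all genes were. Its median log2 fold change was 0.17, beside -0.04 over all genes, and 0.0877 without day 18 replicate 5. *Nanog*, the homeobox factor that stabilises the network, stood at 209, 125 and 216 CPM in B2 and at 194, 158, 199, 172 and 189.9 CPM in B1, and its B1 libraries all lay within the range of B2. Its log2 fold change had an interval of -0.40 to 0.39. *Pou5f1*, which encodes OCT4 and has processed copies in the genome that can share its reads, was at 78.5, 16.7 and 22.5 CPM in B2 and at 19.4 to 50.2 CPM in B1 (log2 fold change 0.23, -0.80 to 1.25). The 2 members of the list with the highest levels were *Utf1*, a chromatin bound factor of pluripotent cells, and *Tdgf1*, the Nodal co-receptor Cripto, with log2 fold changes of -0.00 (-0.30 to 0.30) and 0.18 (-0.06 to 0.41). *L1td1*, an RNA binding protein of pluripotent cells, lay higher in all B2 libraries, at 553, 492 and 672 CPM against 426, 486, 445, 403 and 324 CPM, although 492 and 486 were close (log2 fold change 0.46, edgeR adjusted p = 0.23). *Sall4*, a zinc finger factor of the same network, had 0.47 and no overlap either.

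The naive list had 14 members tested, none called by edgeR or DESeq2 and 3 higher at an unadjusted p below 0.05 (6.89% of all genes), and its median of 0.36 went to 0.0113 without day 12, to 0.22 without day 18 replicate 5 and to 0.66 without day 18 replicate 3. *Klf4* stood at 229 CPM in day 12 replicate 2 but at 37.1 and 51.9 CPM in the 2 day 18 libraries, inside or near the range of 36.05 to 43.2 CPM in B1. *Esrrb* and *Tfcp2l1*, also naive factors, had log2 fold changes of 0.61 and 0.79 with all libraries and of -0.00 and -0.02 without day 12. *Dppa5a* and *Klf5*, the highest members of the list, had 0.22 and 0.03. The formative and primed list (13 tested, none called by edgeR, 3 higher at an unadjusted p below 0.05 and 1, *Sall2*, called higher by DESeq2, where 6.89% and 0.652% of all genes were) had a median of 0.40, or 0.47 without day 12 and 0.24 without day 23 replicate 2. *Sall2*, a zinc finger factor, lay higher in all B2 libraries, at 43.0, 34.8 and 13.5 CPM against 10.8, 8.51, 3.90, 5.93 and 8.36 CPM (log2 fold change 2.00, edgeR adjusted p = 0.203). *Fgf15* and *Fgf5*, growth factors of the epiblast, had log2 fold changes of 0.91 and 0.49. *Fgf5* differed most inside B2, with 29.1, 65.8 and 16.2 CPM, and after thinning it was detected in 59.6% of the cells of day 18 replicate 3 and in 19.05% of those of day 18 replicate 5, against 0 of 85 day 0 SSCs, which allows up to 4.25% (exact). *Eomes*, a T-box factor of the epiblast and mesendoderm, was at 4.23 to 5.77 CPM in B2 and 2.93 to 13.99 CPM in B1.

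Of the genes that mark primordial germ cells and the neighbouring cluster RPG2, *Prdm14* and *Dppa3* overlapped, with log2 fold changes of -0.64 (-2.52 to 1.23) and -0.14 (-0.60 to 0.33). *Bmp4*, a ligand that induces germ cell fate, was at 58.2, 33.2 and 153 CPM in B2, a range that covered all of B1 (72.2 to 99.5 CPM). *Tfap2c*, a germ cell transcription factor, stood at 6.96, 18.8 and 23.3 CPM in B2 and at 16.999, 49.0, 40.0, 40.4 and 75.9 CPM in B1. Only day 20 replicate 1 of B1 fell within the B2 range, and the log2 fold change was -1.39 (edgeR adjusted p = 0.276). The germ cell list (12 tested) had a median of -0.13, which changed sign to 0.0526 without day 12, and the spermatogonia list (18 tested) one of -0.15, which went to -0.53. Other libraries moved them too, the first to -0.57 without day 18 replicate 5 and the second to 0.0533 without day 23 replicate 2. For these lists, edgeR and DESeq2 called none of their members, with 1 higher and 2 lower of the first and none of the second at an unadjusted p below 0.05, where 6.89% of all genes were higher and 5.4% lower. Of the spermatogonia list, *Uchl1* and *Dazl*, both markers of spermatogonia, had log2 fold changes of -0.41 and 0.13.

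The DNA methylation list (9 tested, none called by edgeR, 2 higher at an unadjusted p below 0.05 and 1, *Dnmt1*, called higher by DESeq2, where 6.89% and 0.652% of all genes were) had a median of 0.24, with *Dnmt3l* at 0.01 (-0.28 to 0.30) and *Dnmt3b*, a de novo methyltransferase, at 0.27 (-0.04 to 0.57). *Dnmt1*, which copies methylation after replication, was the member whose libraries did not overlap, at 319, 166 and 196 CPM in B2 and at 126, 155, 139, 126 and 119 CPM in B1 (log2 fold change 0.76, edgeR adjusted p = 0.208), and 0.46 without day 12. *Rhox5*, an X-linked homeobox gene of early germ and pluripotent cells, stood at 608, 527 and 896 CPM in B2 and at 501, 491, 510.0, 199 and 249 CPM in B1. Its day 20 libraries were close to the lowest B2 library and its day 23 libraries well below (log2 fold change 0.80, edgeR adjusted p = 0.265). *Rhox5* was also the 1 gene that changed between the days of B1, by -1.16 from day 20 to day 23 (edgeR adjusted p = 0.00603), of 13488 genes tested in that comparison (0.00741%), which was added after the data were seen.

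With all 8 libraries, the hypoxia list had the largest median difference. Without day 12 its median was -0.59, smaller in size than those of the fibroblast and feeder list (-0.70) and the mesendoderm list (-0.69), which had 8 and 5 members tested there. All 24 of its factors and targets were tested and edgeR called none, with 11 lower and 2 higher in B2 at an unadjusted p below 0.05, 7 lower and 1 higher without overlap, and a median log2 fold change of -0.80, beside -0.04 over all genes. Across all genes, 5.4% were lower at that p and 4.3% lower without overlap. Leaving out 1 library at a time kept the median between -1.04 and -0.57, and DESeq2 called 4 members lower (*Ankrd37*, *Ero1l*, *P4ha1* and *Ndrg1*) and 1 higher, *Epas1*, where it called 0.892% and 0.652% of all genes. The genes of this and the following lists that are named for their differences were picked after their values were seen.

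*Ankrd37*, a small ankyrin repeat protein and a known HIF target, stood at 32.3, 21.3 and 58.6 CPM in B2 and at 126, 78.3, 138, 129.7 and 141 CPM in B1. Every B2 library was below every B1 library, with day 18 replicate 5 and day 20 replicate 2 nearest to each other (log2 fold change -1.70, -2.39 to -1.01, edgeR adjusted p = 0.083). *Ero1l*, the oxidase that forms disulfide bonds in the endoplasmic reticulum, stood at 12.7, 38.3 and 39.7 CPM against 98.6, 70.9, 161, 80.3 and 115 CPM (log2 fold change -1.74, edgeR adjusted p = 0.126). *P4ha1*, a collagen prolyl hydroxylase, stood at 5.06, 16.6 and 30.7 CPM against 49.99, 40.2, 78.0, 65.3 and 66.4 CPM (log2 fold change -1.71, edgeR adjusted p = 0.208). *Ndrg1*, a hypoxia induced stress protein, stood at 5.70, 33.3 and 61.1 CPM against 90.2, 80.0, 107, 119 and 103 CPM (log2 fold change -1.52, edgeR adjusted p = 0.225). For these 4 genes the lowest or second lowest library was day 12 replicate 2, and without it the log2 fold changes were -1.605, -1.41, -1.32 and -1.07. *Egln3*, which hydroxylates HIF, and the glucose transporter *Slc2a3* were lower without overlap as well (log2 fold changes -1.26 and -0.53), and so was *Vegfa*, the angiogenic factor, at 0.633, 7.84 and 0.980 CPM against 12.1 to 21.2 CPM. With 1, 110 and 16 UMIs in B2, *Vegfa* passed the filter on low counts mainly through B1, where it is high. *Bnip3*, *Ddit4*, *Adm* and *Ak4* had log2 fold changes of -1.14, -1.09, -1.51 and -0.94 with libraries that overlapped.

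Other members did not share this difference. *Hif1a*, which encodes the other main oxygen-regulated HIF subunit, was at 49.4, 138 and 117 CPM in B2 and 86.4 to 129 CPM in B1, a log2 fold change of 0.04 (-0.55 to 0.63). *Slc2a1*, the main glucose transporter and the highest member of the list, was at 177 CPM in day 12 replicate 2 but at 611 and 467 CPM on day 18, and at 505 to 601 CPM in B1 (log2 fold change -0.39, and -0.02 without day 12). *Higd1a*, a mitochondrial protein induced by hypoxia, had -0.09. *Mxi1*, a partner of MAX, was high in day 12 replicate 2 alone, at 91.8 CPM, and its other B2 libraries lay at 31.9 and 15.4 CPM, close to 11.1 to 28.7 CPM in B1.

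Promoters of 4 targets are shown so that the control regions of hypoxia genes with low levels in B2 can be read. They are the members with the lowest p among those lower in B2 that have a sequence in the RefSeq table (GRCm38.p6); *Ndrg1*, *Slc2a3* and *Epas1* have no entry. Each runs from 250 bases before to 50 bases after the annotated start, 5′ to 3′ on the strand of the gene, and capitals mark the letters ACGTG or GCGTG, read on either strand, which hold the core of the hypoxia response element. The positions are chr8:45999801-46000100 (minus) for *Ankrd37*, chr14:45318523-45318822 (minus) for *Ero1l*, chr10:59323046-59323345 (plus) for *P4ha1* and chr10:59951721-59952020 (minus) for *Ddit4*.
Ankrd37: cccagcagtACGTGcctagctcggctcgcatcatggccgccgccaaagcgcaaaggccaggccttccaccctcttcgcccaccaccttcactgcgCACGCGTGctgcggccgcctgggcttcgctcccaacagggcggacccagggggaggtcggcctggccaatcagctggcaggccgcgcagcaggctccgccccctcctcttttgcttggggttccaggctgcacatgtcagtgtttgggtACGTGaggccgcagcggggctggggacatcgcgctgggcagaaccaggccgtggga
Ero1l: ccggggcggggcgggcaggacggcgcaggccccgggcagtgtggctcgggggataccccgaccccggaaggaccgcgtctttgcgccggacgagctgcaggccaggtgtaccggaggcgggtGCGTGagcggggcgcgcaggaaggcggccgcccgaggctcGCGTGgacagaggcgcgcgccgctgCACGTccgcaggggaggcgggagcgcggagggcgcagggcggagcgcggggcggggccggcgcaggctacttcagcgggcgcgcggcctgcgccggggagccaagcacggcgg
P4ha1: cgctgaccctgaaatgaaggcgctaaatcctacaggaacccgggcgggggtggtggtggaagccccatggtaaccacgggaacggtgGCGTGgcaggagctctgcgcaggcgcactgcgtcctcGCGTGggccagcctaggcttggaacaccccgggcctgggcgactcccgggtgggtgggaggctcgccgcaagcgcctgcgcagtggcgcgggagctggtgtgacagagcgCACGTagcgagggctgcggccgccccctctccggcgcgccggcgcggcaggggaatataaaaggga
Ddit4: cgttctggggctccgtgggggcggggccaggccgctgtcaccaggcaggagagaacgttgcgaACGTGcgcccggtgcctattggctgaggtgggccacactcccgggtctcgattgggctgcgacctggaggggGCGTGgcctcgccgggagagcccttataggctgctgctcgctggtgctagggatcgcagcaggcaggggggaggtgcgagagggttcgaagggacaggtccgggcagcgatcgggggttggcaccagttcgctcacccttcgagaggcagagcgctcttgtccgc
The 4 promoters hold 4, 3, 3 and 2 matches, of which 2 overlap in *Ankrd37*. The letters are common: 43.8% of 27025 promoters of this length hold a match, as do 63.6% of those of the genes tested and 19 of the 21 members of the list that have an entry. A match is a description of these letters and not a site.

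**Figure D2:**
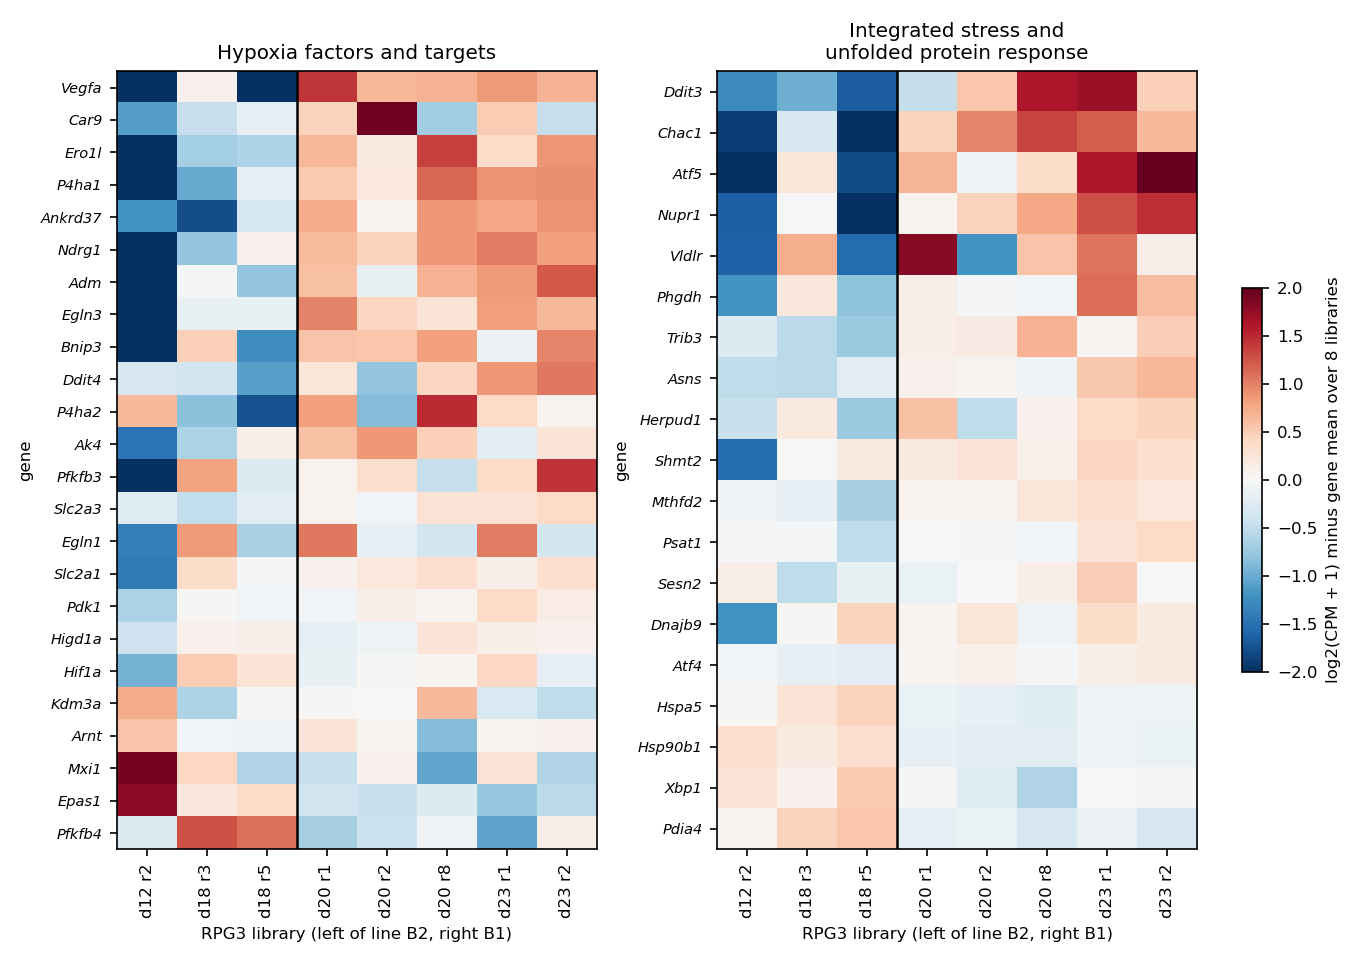
RPG3 level of the 24 hypoxia genes and the 19 tested stress genes in each library (columns, B2 left of the line and B1 right), as log2(CPM + 1) minus the mean of the gene over 8 libraries, with colours capped at -2 and 2. Rows run from the lowest to the highest difference, the targets from *Vegfa* to *Ddit4* are blue in most B2 and red in most B1 libraries, and *Epas1*, *Hspa5*, *Hsp90b1*, *Xbp1* and *Pdia4* have the opposite order.

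Most glycolytic enzymes had log2 fold changes below 0, while their summed level overlapped between the batches. It was 4863, 8308 and 7765 CPM in B2 and 7914 to 9348 CPM in B1. Of 18 tested, edgeR called none and DESeq2 called *Gpi1* and *Aldoc* lower, 5 were lower at an unadjusted p below 0.05 (0.892% and 5.4% of all genes), 17 had a log2 fold change below 0, and the median was -0.32, or -0.15 without day 12 and -0.49 without day 18 replicate 3. *Gpi1*, which makes fructose 6-phosphate, stood at 212, 349 and 312 CPM in B2 and at 453, 450.0, 530.1, 514 and 601 CPM in B1, with no overlap (log2 fold change -0.80, edgeR adjusted p = 0.0993). *Aldoc*, an aldolase, stood at 72.8, 64.4 and 72.6 CPM against 123, 95.1, 146, 158 and 171 CPM, also without overlap (log2 fold change -0.99, edgeR adjusted p = 0.173). *Pkm* and *Ldha*, the last enzymes of the path to lactate and the highest members, were low in day 12 replicate 2 alone, with 708 and 668 CPM there, 1255 and 1205 CPM in day 18 replicate 3, and log2 fold changes of 0.04 and 0.06 without it. Of the transporters, *Slc16a3*, which exports lactate, was lower without overlap at 44.9, 324 and 242 CPM against 329.9 to 439 CPM, although 324 and 329.9 nearly touch. The list of 24 nuclear genes of oxidative phosphorylation had a median of 0.05, or 0.12 without day 12 and -0.0401 without day 18 replicate 5, with *Atp5b* and *Cox4i1*, subunits of ATP synthase and cytochrome oxidase, at -0.04 and 0.02.

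The stress list had members on both sides, with 15 of 19 log2 fold changes below 0. Of the 19 members tested, edgeR called none and DESeq2 called 3 lower (0.892% of all genes), 8 were lower and 4 higher at an unadjusted p below 0.05, where 5.4% and 6.89% of all genes were, and the median was -0.53, or -0.43 without day 12. The lower ones were targets or relatives of *Atf4*: *Chac1*, *Ddit3*, *Nupr1*, *Asns*, *Trib3*, *Mthfd2*, *Phgdh* and *Atf5*. *Chac1*, which breaks down glutathione, stood at 7.60, 24.5 and 4.96 CPM in B2 and at 42.2, 61.4, 80.6, 72.7 and 49.1 CPM in B1 (log2 fold change -2.26, edgeR adjusted p = 0.13). *Ddit3*, the stress factor CHOP, stood at 5.06, 6.41 and 3.62 CPM against 9.51, 20.6, 43.9, 47.4 and 19.4 CPM (log2 fold change -2.48, edgeR adjusted p = 0.196). *Asns*, asparagine synthetase, stood at 199, 196 and 246 CPM against 301, 296, 269.8, 412 and 454 CPM (log2 fold change -0.70, edgeR adjusted p = 0.205). None of the 3 overlapped between batches, and without day 12 their log2 fold changes were -2.04, -2.47 and -0.64. *Atf4* itself, whose activity is set mostly by translation, was lower by little, with 299 to 332 CPM in B2 and 334 to 393 CPM in B1 (log2 fold change -0.22, -0.47 to 0.02).

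The 4 higher members were chaperones and the factor of the unfolded protein response in the endoplasmic reticulum. *Hspa5*, the chaperone BiP, stood at 403, 479 and 537 CPM in B2 and at 359, 353, 334, 369 and 370.1 CPM in B1 (log2 fold change 0.41, edgeR adjusted p = 0.225). *Hsp90b1*, the chaperone GRP94, stood at 558, 506 and 561 CPM against 399.7, 381, 386, 416 and 408 CPM (log2 fold change 0.44, edgeR adjusted p = 0.195). *Pdia4*, a disulfide isomerase, and *Xbp1* had log2 fold changes of 0.60 and 0.47. All 4 were higher in every B2 library than in any B1 library, by amounts of under 1 on the log2 scale.

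Metallothioneins, which bind zinc and copper, lay lower in B2. *Mt2* stood at 259.5, 295 and 231 CPM in B2 and at 400.0, 400.1, 550.3, 592 and 508 CPM in B1, with no overlap and a narrow spread in B2 (log2 fold change -0.90, -1.23 to -0.57, edgeR adjusted p = 0.0514). *Mt1* had -0.83 (edgeR adjusted p = 0.0993). Their redox list had a median of 0.13 over 16 tested, or 0.0167 without day 18 replicate 5, with *Prdx1* and *Gpx1*, which reduce peroxides, at 0.25 and 0.10. The list of antigen presentation and interferon response had 15 genes tested, with 3 higher and 3 lower at an unadjusted p below 0.05 (6.89% and 5.4% of all genes), and its median of -0.41 went to 0.0488 without day 12. Of the lower genes, *H2-D1*, a class I heavy chain, stood at 18.99, 21.9 and 19.6 CPM against 49.5, 50.5, 79.3, 54.3 and 97.6 CPM (log2 fold change -1.71, edgeR adjusted p = 0.0993), and *Psmb9*, a subunit of the immunoproteasome, had -1.57. Both were separate between the batches and called by DESeq2 but not edgeR, while *Ifitm2* and *Ifitm3*, the highest members, had 0.04 and -0.11. Of the higher genes, *Ifitm1* had a log2 fold change of 0.47, and that of the interferon induced *Isg15* went from 4.52 to 1.43 without day 12. Reads of *H2-D1*, *H2-K1*, the *Ifitm* genes and the metallothioneins can be shared with close copies in the genome, which makes their levels less certain.

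Genes of mitosis mostly had log2 fold changes above 0, at 14 of 16. Their summed level overlapped between the batches through day 12 replicate 2, at 4391 CPM there and 3895 to 4510 CPM in B1. Of 16 tested, none was called by edgeR or DESeq2, 7 were higher and none lower at an unadjusted p below 0.05 (6.89% and 5.4% of all genes), 4 were higher without overlap (3.73% of all genes), and the median was 0.31 (0.45 without day 12, 0.15 without day 18 replicate 5). *Top2a*, the topoisomerase that untangles chromosomes, stood at 484, 492 and 534 CPM in B2 and at 355, 418, 311, 386 and 308 CPM in B1 (log2 fold change 0.50, edgeR adjusted p = 0.203). *Mki67*, the proliferation antigen, and the centromere protein *Cenpe* had 0.75 and 0.40. *Ccnb1* and *Birc5*, cyclin B1 and survivin, the highest members, had 0.26 and 0.22. Genes of S phase and G1 control were nearer to 0, with medians of 0.14 (16 tested) and 0.07 (15 tested), or 0.0752 and 0.14 without day 12 and 0.24 (S phase) without day 18 replicate 3, *Pcna* at 0.43, *Rrm2* at 0.28 and *Cdk4* at 0.07. Of 14 p53 targets, *Trp53inp1* was higher without overlap (log2 fold change 1.05, and 0.37 without day 12), and the median was 0.24 (0.15 without day 12).

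The 11 mitochondrially encoded genes tested had a median of 0.20. *mt-Cytb*, cytochrome b, stood at 1675, 1512 and 1841 CPM in B2 and at 1199.7, 1327, 1273, 1005 and 1049 CPM in B1, with no overlap (log2 fold change 0.52, 0.29 to 0.74, edgeR adjusted p = 0.0993). *mt-Nd1* overlapped, with a log2 fold change of 0.13. Per cell, the median share of mitochondrial UMIs in the deposited annotation was 0.751% in B2 and 0.673% in B1. By library the medians overlapped, at 0.659%, 0.679% and 0.804% in B2 and 0.561% to 0.759% in B1.

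Among signalling pathways, the Nodal list (13 tested, none called by edgeR or DESeq2, 2 higher at an unadjusted p below 0.05, where 6.89% of all genes were) had a median of -0.38. It was -0.24 without day 12, -0.0967 without day 20 replicate 1 and -0.0717 without day 23 replicate 1. *Lefty2*, a secreted Nodal inhibitor, stood at 164, 62.6 and 152 CPM in B2 and at 25.5, 25.98, 10.7, 98.4 and 50.1 CPM in B1. It overlapped through day 23 replicate 1 (log2 fold change 1.56, edgeR adjusted p = 0.247), while *Nodal* and *Lefty1* had -0.70 and -0.38. In the FGF list (17 tested, median 0.09, or 0.16 without day 12, 0.0197 without day 20 replicate 8 and 0.43 without day 20 replicate 2), the receptor *Fgfr1* did not overlap (log2 fold change 0.83), and *Etv5* and *Fgf4*, a target and a ligand, had 0.09 and 0.32. In the Wnt list (14 tested, median 0.30, or 0.0264 without day 18 replicate 5), the receptor *Fzd7* stood at 119.6, 147 and 160.0 CPM in B2 and at 86.0, 70.5, 67.3, 109 and 96.0 CPM in B1, without overlap (log2 fold change 0.73, edgeR adjusted p = 0.225). In the BMP list (13 tested, median 0.33, or 0.09 without day 12 and -0.14 without day 18 replicate 5), the inhibitor *Smad7* was higher (1.34) and the ligand *Bmp7* lower (-2.39) without overlap, *Bmp7* at 1.27 to 1.96 CPM in B2 and 4.60 to 15.1 CPM in B1. The LIF list (10 tested) had a median of -0.02, or -0.12 without day 12 and 0.10 without day 18 replicate 3, with *Socs2*, a feedback inhibitor, at 0.01.

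The list of 19 immediate early genes, which are induced within minutes of a stimulus such as dissociation, had a median of -0.50, or -0.31 without day 12 and -0.81 without day 18 replicate 5. For day 18 against day 20 the median was -0.029. DESeq2 called 2 of its members lower (0.892% of all genes) and edgeR none. At an unadjusted p below 0.05, 5 were lower and 1 higher (5.4% and 6.89% of all genes), and 4 were lower without overlap (4.3% of all genes). *Cyr61*, a matrix protein, stood at 3.17, 3.92 and 2.02 CPM in B2 and at 33.2, 11.2, 25.03, 8.64 and 9.71 CPM in B1 (log2 fold change -2.53, edgeR adjusted p = 0.208). *Jun*, *Ier3* and *Atf3* were lower without overlap as well, *Atf3* with 4 UMIs in all in B2 and 13 to 41 UMIs per B1 library, so that it passed the filter on low counts through B1 and had to differ. *Egr1* went the other way (log2 fold change 0.83), and *Ier2* and *Dusp1*, the highest members, had 0.06 and -0.68.

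Of 25 imprinted genes tested, edgeR called none and DESeq2 1 lower (0.892% of all genes). At an unadjusted p below 0.05, 4 were higher and 3 lower (6.89% and 5.4% of all genes), and the median of -0.49 went to -0.13 without day 12, to 0.0812 without day 23 replicate 2 and to 0.25 for day 18 against day 20. *Snrpn* and *Kcnq1ot1*, both expressed from the paternal allele and the highest members, had log2 fold changes of 0.55 and 0.58, the second without overlap. *Sgce*, *Nnat* and *Peg10* had -1.56, -1.26 and -1.07, with *Nnat* at 5.06 CPM in day 12 replicate 2, 93.8 and 60.7 CPM on day 18 and 94.97 to 158 CPM in B1.

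Other lists held chromatin, metabolic and adhesion genes. Histone methylation genes (18 tested) had a median of 0.13, or 0.23 without day 18 replicate 3, with the demethylase *Kdm5b* at 0.05 (-0.24 to 0.34) and the methyltransferase *Ezh2* at 0.07 (-0.24 to 0.38). Cholesterol synthesis genes (20 tested) had a median of -0.15, or 0.0549 without day 12 and -0.37 without day 18 replicate 5, with *Fdft1* and *Msmo1*, enzymes of that path, low only in day 12 replicate 2. Genes of threonine, serine and glycine metabolism (13 tested) had a median of -0.07, or -0.18 without day 12, with *Tdh*, the threonine dehydrogenase of mouse pluripotent cells, at 0.11 and *Psat1*, a serine synthesis enzyme, at -0.31. Of these 13, 1 was higher and 4 lower at an unadjusted p below 0.05, and 2 were lower without overlap (6.89%, 5.4% and 4.3% of all genes). The epithelial list (12 tested) had a median of -0.51, or -0.20 without day 12 and -1.10 without day 18 replicate 3, with 1 higher and 1 lower at an unadjusted p below 0.05 (6.89% and 5.4% of all genes). Its highest member *Epcam*, an adhesion molecule, was at 277 to 353 CPM in B2 and 268 to 348 CPM in B1, a log2 fold change of 0.02 (-0.26 to 0.31). *Fn1* and *Vim*, fibronectin and vimentin, of the mesenchymal list (10 tested, median 0.32, or 0.13 without day 12 and -0.27 without day 18 replicate 5) had 0.84 and 0.65, and 0.41 and 0.13 without day 12. The amino acid transporter subunit *Slc3a2* had -0.13 in a list of 12 transporters with a median of -0.14, or -0.26 without day 18 replicate 5 and -0.0697 without day 20 replicate 1, and *Trp53* and its target *Bax* had -0.08 and 0.09. Of the 12 transporters, 1 was higher and 3 lower at an unadjusted p below 0.05 (6.89% and 5.4% of all genes). Without overlap, 1 was higher and 4 were lower (3.73% and 4.3% of all genes). Of the 2-cell-like list, 0 of 12 genes had enough counts to be tested.

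Over the 35 lists, 466 of 526 genes could be tested, and edgeR called none. At an unadjusted p below 0.05, 61 were higher and 51 lower, and DESeq2 called 5 higher and 17 lower. Of all genes, 6.89% and 5.4% were higher and lower at that p, and DESeq2 called 0.652% and 0.892%. The absolute median was below 0.25 in 16 lists and at least 0.5 in 5, namely hypoxia (-0.80), the fibroblast and feeder list (-0.66 over 5 tested members), stress (-0.53), epithelial genes (-0.51) and immediate early genes (-0.50). Of these, the medians of the fibroblast and epithelial lists moved to 0.0118 without day 20 replicate 8 and to -0.0209 without day 18 replicate 5. The other 3 stayed below -0.31 with any 1 library left out. For day 18 against day 20 they were -0.63 (hypoxia), -0.26 (stress) and -0.029 (immediate early genes). A median of a list is a description of its members, and lists share genes.

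**Figure D3:**
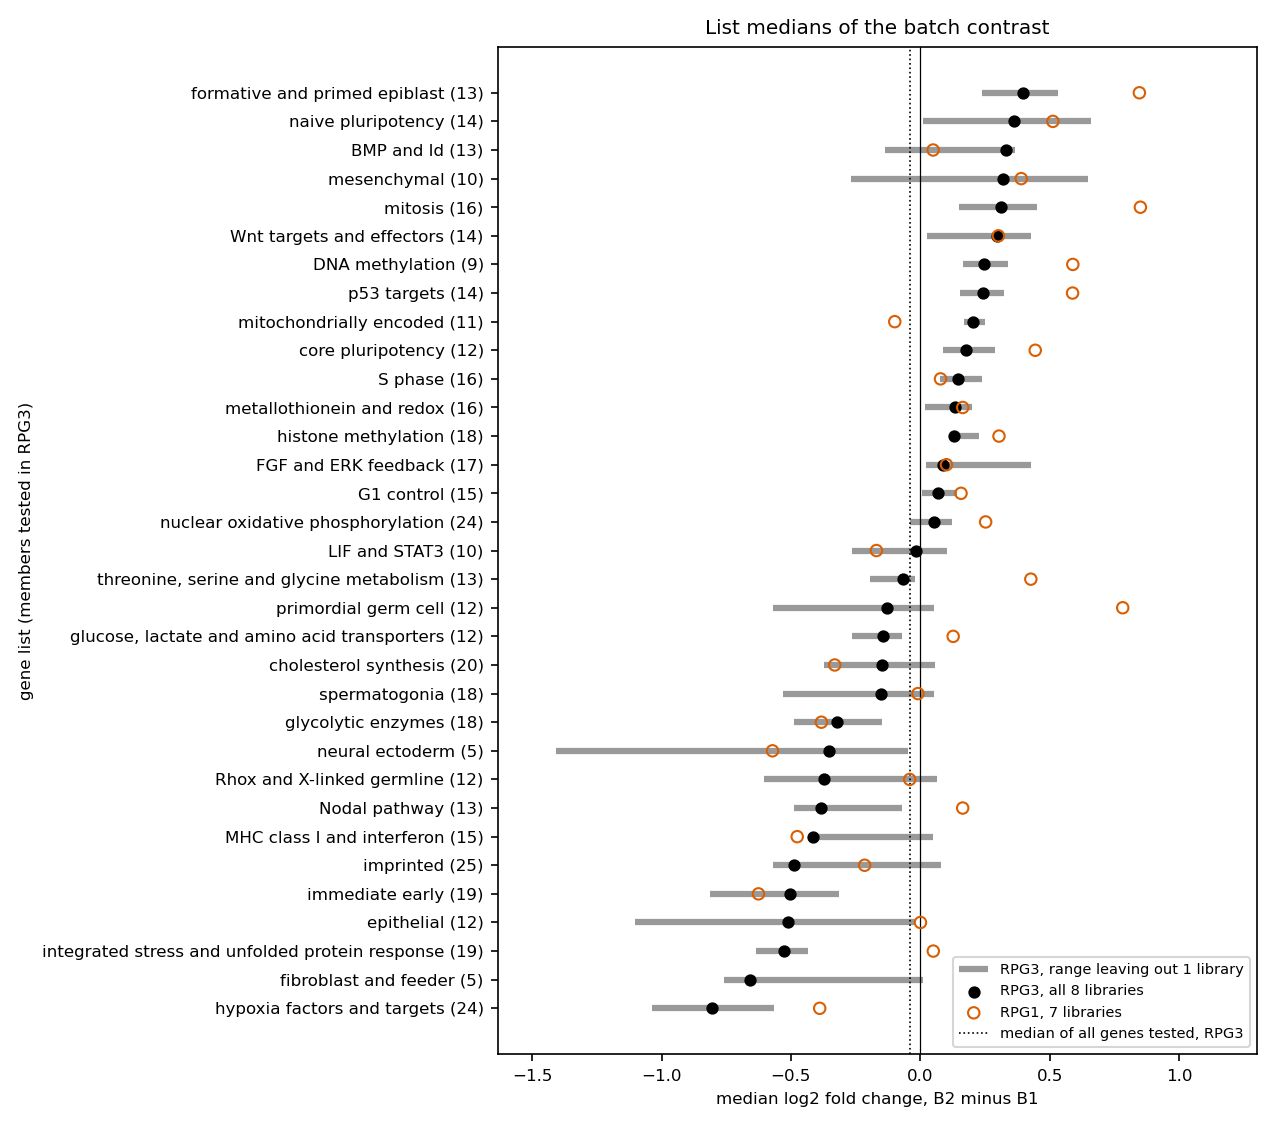
Median log2 fold change (B2 minus B1) of each list with at least 5 members tested in RPG3; black points are all 8 libraries, grey bars the range when 1 library is left out, open circles RPG1 and the dotted line the median of all genes in RPG3 (-0.04). The hypoxia median lies lowest at -0.80 with a range of -1.04 to -0.57, and the RPG1 median of the fibroblast list (-4.49) is beyond the axis and not drawn.

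Most of these libraries also held cells of RPG1, an earlier cluster of the same branch, which allows the batch comparison to be set beside that of another cell state in the same libraries (2 B2 and 5 B1 libraries). Because the libraries are shared, the 2 comparisons are not independent. In RPG1, edgeR called 83 genes higher and 133 lower in B2, or 1.4% of 15458, but 7 and 16 without day 18 replicate 5, which leaves 1 B2 library whose spread is assumed to be that of B1. *Ankrd37* was at 27.8 and 22.7 CPM in B2 and at 160.4, 177, 100.5, 250.4 and 149 CPM in B1 (log2 fold change -2.73, edgeR adjusted p = 0.000745), and *Ero1l* was lower by a log2 fold change of -1.87 (edgeR adjusted p = 0.000224), beside -1.605 and -1.41 in RPG3 without day 12 replicate 2, which held no RPG1 cell. Of the hypoxia list, 7 of 23 members fell and none rose in RPG1, where 0.86% and 0.537% of all genes did so, with a median of -0.39, beside -0.59 in RPG3 over the same libraries. *Pcbp1* rose in RPG1 too (1.10, edgeR adjusted p = 0.00353), and *Anxa2* had -1.38 (edgeR adjusted p = 0.0956). Of the mitosis list, 13 of 16 rose in RPG1 and the median was 0.85, beside 0.45 in RPG3 over the same libraries. The stress list had a median of 0.0497 in RPG1 and -0.43 in RPG3 over the same libraries. The fibroblast and feeder list had a median of -4.49 over 11 tested members in RPG1 and edgeR called none of them. Its summed level over the 6 markers was 15.4 to 43.4 CPM in the B2 and 24.9 to 51.7 CPM in the B1 sums of RPG1, with *Col12a1*, *Col5a2*, *Col1a2* and *Col3a1* at 0 in both B2 libraries. Their part in the RPG1 results was not tested.

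Several pluripotency genes had larger fold changes in RPG1. *Sox2* was at 172 and 81.5 CPM in the B2 libraries of RPG1 and at 28.7, 44.2, 40.8, 27.2 and 36.2 CPM in the B1 libraries (log2 fold change 1.84, edgeR adjusted p = 0.00353), where RPG3 had 0.12 over the same libraries. *Rhox5*, *L1td1* and *Dppa5a* had log2 fold changes of 2.19, 1.82 and 1.15 in RPG1 (edgeR adjusted p = 0.00466, 0.0215 and 0.0226) and of 0.88, 0.50 and 0.26 in RPG3 over the same libraries. The test of the difference itself, as an interaction of cluster and batch over 16473 genes, called none (0.0%) with edgeR. At an unadjusted p below 0.05, the contrast B2 minus B1 was higher in RPG3 than in RPG1 for 493 genes and lower for 442. For *Sox2* the difference was -1.66 (edgeR adjusted p = 0.29). A fit with the library as a block, added after the data were seen, used only the libraries holding both clusters. In it, edgeR called the contrast higher in RPG3 for 7 genes and lower for 28 (0.0423% and 0.169% of 16544). These are differences of the contrast and not of the level in a cluster. *Sox2* (-1.65), *Dppa5a* (-0.91), *L1td1* (-1.36), *Rhox5* (-1.22), *Dnmt3l* (-0.97) and *Tdh* (-1.07) were among those with a lower contrast, with edgeR adjusted p from 0.00852 to 0.0474. *Slc2a1* (1.03) and *Pfkp*, a phosphofructokinase (1.18), were among the higher: both fell in RPG1 in B2 (-1.03 and -1.62), where RPG3 had -0.02 and -0.44 over the same libraries.

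**Figure D4:**
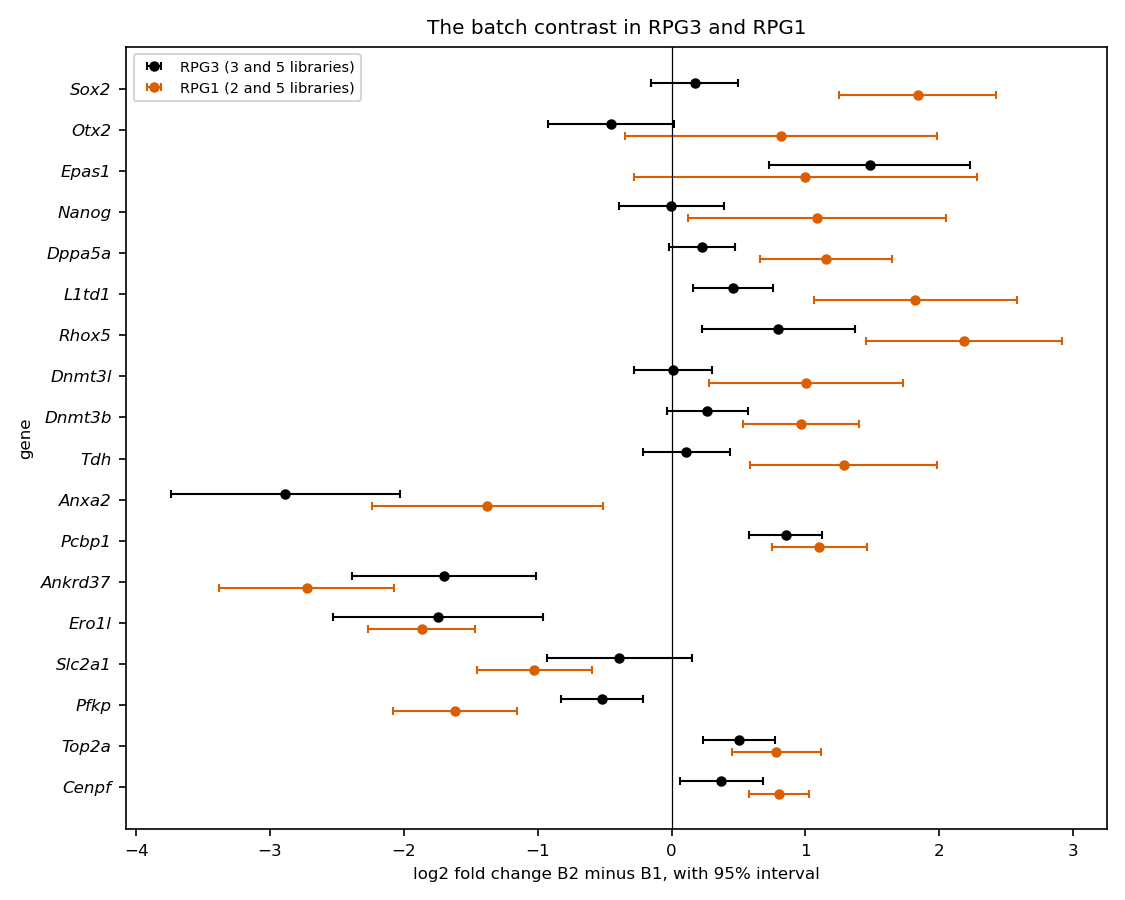
Log2 fold change of batch B2 minus B1 with its 95% interval for 18 genes in RPG3 (black, 8 libraries) and RPG1 (orange, 7 libraries, without day 12 replicate 2). *Nanog*, *Dppa5a*, *Dnmt3l* and *Sox2* lie near 0 in RPG3 and above 0 in RPG1 (*Sox2* at 0.17 and 1.84), while *Ankrd37*, *Ero1l* and *Anxa2* lie below 0 and *Pcbp1* above 0 in both.

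SSCs allow batch and day to be looked at apart, since both batches held them on shared days. The RPG3 libraries were not among those compared at matched days. At matched days (14, 16 and 18; 7 B2 and 9 B1 libraries, with day as a factor in the fit), edgeR called 3 genes higher and 3 lower in B2 (0.0213% each and 0.0426% in all of 14083), and the hypoxia list had a median of -0.00. *Epas1*, *Ankrd37*, *Anxa2* and *Pcbp1* had log2 fold changes of -0.14, 0.02, 0.43 and 0.28 there. Between days 20 and 23 and days 12, 14 and 18 inside B1 (13 and 8 libraries), 896 genes rose (5.73%) and 288 fell (1.84%) with day, or 7.57% of 15650. *Anxa2* rose by 1.47 (edgeR adjusted p = 2.28e-07), *Ankrd37* by 1.08 (edgeR adjusted p = 0.0327) and *Ero1l* by 0.90 (edgeR adjusted p = 0.000267), while *Pcbp1* (-0.09) and *Epas1* (0.23) were not called, and the hypoxia list had a median of 0.17 with 5 members rising and 1 falling. These comparisons are of SSCs, and for RPG3 itself batch and day cannot be told apart.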

How the data were processed

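STRT-seq libraries of the original condition numbered 46 and held 15975410 to 34609591 UMIs. The deposited table gives UMI counts without normalization, and a deposited annotation gives the cluster, the batch and, in percent, the mitochondrial share for every cell. Per the study's methods and processing notes, UMItools extracted and counted UMIs, STAR 2.7.2b aligned reads to mm10 and featureCounts 2.0.0 assigned them to genes, and clusters were found with Seurat on these same cells. Counts of 5 libraries carry a pair of cell name prefixes each and were joined. Of the count table, 778 columns of other cells or samples were not used. Doublets were not called here, and all annotated cells were kept.

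Counts were summed per library and cluster with at least 5 cells, with SSC1 to SSC4 taken as 1 class. The sums were tested with edgeR 4.0.16 (TMM, filterByExpr, quasi-likelihood F test, R 4.3.3), with only the clusters and batches compared in the fit. There was no covariate, except day as a factor for SSCs at matched days and the library in the block fit. Calls needed an adjusted p (Benjamini-Hochberg) under 0.05 with a natural-log fold change of at least 0.5, that is 0.72 on the log2 scale. CPM used TMM scaling, and "did not overlap" means that all library values of 1 batch lay on 1 side of those of the other. Intervals are at the 95% level. Alternatives used DESeq2 1.42.0, limma 3.58.1, other filters, thresholds and sums, and each library left out. Sums and shares were computed in Python 3.11.15 (numpy 2.4.6; scipy 1.17.1 for exact intervals), tables were read by pandas 2.3.3, and plots were drawn in matplotlib 3.10.9. The fit was tested on simulated data, in which 3 unchanged genes of 12990 were called.

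The members and the gene lists were chosen with earlier results of these data known. The genes named were the 3 markers, called genes with a mean of at least 10 CPM and no overlap (up to 10 per direction), up to 4 called members of each list, or its 2 highest where none was called, and 10 genes that the study discusses for these clusters. Others were chosen after their values were seen. Of 94 plate barcodes among RPG3 cells, 77 occurred in more than 1 library, and the highest correlation between cells of different libraries (0.874) was below that within libraries (0.886). Gene coordinates are those of GENCODE on GRCm38, the assembly that mm10 names, and count from 1. The deposited symbols write hyphens as dots, and 227 were restored.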

Additional observations from a re-analysis of the deposited data

Results flagged for a closer look

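Of the 86 genes whose 5 B1 libraries were examined, 3 had a library far from the other 4 by Dixon's test, and about 1 in 20 such groups is flagged by chance. *Lhx1*, a LIM homeobox factor of the mesendoderm, reached 46.2 CPM in day 20 replicate 8, while the other B1 libraries lay between 2.88 and 8.24 CPM. *Ncam1*, a neural adhesion molecule, was also highest in day 20 replicate 8, at 18.2 CPM against 5.86 to 9.14 CPM. That library gave 10 RPG3 cells. *Ankrd37* was lowest in day 20 replicate 2, at 78.3 CPM against 126 to 141 CPM, which makes it the B1 library nearest to B2 for that gene.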

How the results depend on the processing

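For RPG3, the counts of genes called higher and lower in B2 (1 and 1) were 87 and 119 by DESeq2 (where 1839 adjusted p-values were missing), 59 and 33 with no filter on low counts, 3 and 4 with at least 10 cells per library, which is the same as without day 12, 5 and 8 with cells thinned to 50000 UMIs, 3 and 14 by limma with equal weight of cells, and 0 and 1 for day 18 against day 20. They were 0 and 0 with edgeR at the stricter threshold (natural-log fold change of 1 and adjusted p below 0.01), with sums per Type code (in which B1 gave only 1 sum per day) and with sums per batch and day, where 920 and 720, 436 and 315, and 514 and 284 genes had an unadjusted p below 0.05. *Anxa2* lost its call in these 3 settings at log2 fold changes of -2.89, -2.87 and -3.16, and *Pcbp1* at 0.85, 0.85 and 0.83, and also for day 18 against day 20 (0.89). *Epas1* was called by DESeq2 (1.52) and with no filter (1.48). The core pluripotency median moved to 0.041 and the hypoxia median to -1.09 under limma, and the naive median to 0.0113 without day 12 or with at least 10 cells and to 0.0241 for day 18 against day 20. With no filter, RPG1 gave 137 and 212 calls, SSCs at matched days 41 and 32, SSCs by day 1044 and 809, and the difference between RPG3 and RPG1 0 and 1; with DESeq2's size factors, SSCs at matched days gave 2 and 1. With the library as a block, that difference gave 7 and 28.

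Leaving out 1 library gave 0 to 9 calls in each direction in RPG3, and 0 in both without day 20 replicate 1, day 20 replicate 8, day 23 replicate 1 or day 23 replicate 2. It gave 7 to 94 higher and 16 to 139 lower in RPG1, the fewest without day 18 replicate 5, 0 and 0 to 3 for the difference between the clusters, and 0 to 2 and 1 to 4 for SSCs at matched days. *Epas1* ranged from 0.83 to 1.75, *Anxa2* from -3.22 to -2.47, *Pcbp1* from 0.80 to 0.93, and the medians of the core, naive and hypoxia lists from 0.0877 to 0.29, 0.0113 to 0.66 and -1.04 to -0.57. The cause of these moves was not tested. No paired analysis was possible, because the RPG3 sums of B2 and B1 had no library and no day in common. Intervals were wider for low genes, and the parts of depth and of spread between libraries in that were not separated.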

Other observations

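Some genes differed between B2 libraries rather than between batches. They were picked after their values were seen, and *Pnp2* and *Cd44* did not pass the filter on low counts with all 8 libraries, although *Pnp2* was tested and called when day 18 replicate 3 was left out. *Pnp2*, a purine nucleoside phosphorylase with a close copy beside it, stood at 31.02 CPM in day 12 replicate 2, 0.143 CPM in day 18 replicate 3 and 80.9 CPM in day 18 replicate 5, and at 0.0914 to 0.325 CPM in B1. After thinning it was detected in 48 of the 63 cells of day 18 replicate 5 (76.2%, exact interval 63.8 to 86.0%), in 0 of 57 cells of day 18 replicate 3 (exact upper bound 6.27%) and in 1 of 129 B1 cells. The RPG1 cells of day 18 replicate 5 had 6.999 CPM. These 2 day 18 libraries carry different Type codes in the annotation, whose meaning is not stated there. *Cd44*, a hyaluronan receptor, had 72 UMIs in day 12 replicate 2 and 2 in all other RPG3 libraries together.

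*Scgb3a1*, a secretoglobin, had 100, 33 and 82 UMIs in the B2 libraries and none in B1, and *Olig1*, a basic helix-loop-helix factor, 41, 114 and 621 UMIs in B2 and 0 to 7 in B1. *Ace*, the angiotensin converting enzyme, had 0, 13 and 49 UMIs in B2 and 67 to 497 in B1, that is 0 to 3.002 CPM and 17.8 to 45.4 CPM. These 3 genes passed the filter on low counts through the batch in which they are high. *Platr3*, a long noncoding RNA of pluripotent cells, stood at 249, 199 and 388 CPM in B2 and at 81.9 to 137 CPM in B1 (log2 fold change 1.25, edgeR adjusted p = 0.0514, and 0.0376 without day 12). *Hnrnpd* and *Sub1*, which bind RNA and DNA, and the importin *Kpnb1* were higher in all B2 libraries, with log2 fold changes of 0.77, 0.58 and 0.96 (each edgeR adjusted p = 0.0514).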
